A study of Mus musculus with 11 samples.

Results

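The tuft cell program of the thymus was followed through 32 named mouse genes, chosen by symbol as regulators, taste signalling proteins, taste receptors, eicosanoid enzymes, effectors and structural markers of tuft cells. All 32 were found among the 56691 genes of the count table. The libraries were RNA-seq of EpCAM-positive thymic epithelial cells, sorted after depletion of CD45-positive cells, from NOD mice, a strain prone to autoimmune diabetes, aged 4 to 8 weeks. Aire was WT/WT in 3 libraries, WT/R249C in 5 and R249C/R249C in 3. R249C lies in the SAND domain of Aire, and every group carries the NOD background. The labels name 2 batches: 1 WT/WT library, 3 of WT/R249C and 3 of R249C/R249C form batch A, and 2 of WT/WT and 2 of WT/R249C form batch B. WT/R249C replicates 4 and 5 were grouped by their titles, although their genotype field reads R249C/R249C. No other WT/R249C library is in batch B. The number of mice behind a library is not stated, so p-values measure the spread between libraries.

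Tuft cells are rare chemosensory epithelial cells that detect compounds through taste receptors and release interleukin-25, acetylcholine and lipid mediators. In the thymic medulla, cells of this kind arise among the mimetic cells, epithelial cells that take on the program of a peripheral tissue, and they depend on the transcription factor Pou2f3. In the taste cascade a receptor activates gustducin (Gnat3 with Gnb3 and Gng13), which activates phospholipase C beta 2 (Plcb2). Calcium released through the inositol trisphosphate receptor Itpr3 then opens the cation channel Trpm5.

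Library totals ran from 60560348 counts in WT/R249C replicate 3 to 182319976 in WT/WT replicate 3. Levels are given as CPM, each count scaled by its library's total and not per length, so they are compared between libraries and not between genes. The reads have no molecular identifiers, so a floor of 3 counts, used where a gene is at 0, covers counting error alone. Epcam lay between 355 and 521 CPM in all libraries, and Aire, the gene that carries the variant, between 174 and 858 CPM. R249C is a missense variant, so the Aire level does not check the labels. Bulk RNA cannot tell fewer tuft cells from less RNA per tuft cell.

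Tuft cell genes were detected in every library, but which of them were present varied. 17 of the 32 were above 0 in all 11 libraries, and 15 were at 0 in at least 1. Of the 352 values, 56 (15.9%) were 0, against 10.8% over the 18714 genes in the same range of mean CPM. Matched by level, the shares lay nearer to those of all genes. They were 61.4% against 57.2% at a mean CPM of 0 to 1, 16.5% against 13.2% at 1 to 10 and 0% against 0.464% at 10 to 100. The members at 0 numbered 2 in WT/WT replicate 3 and WT/R249C replicate 1 and 9 in WT/R249C replicate 3, the library of lowest total. Their number did not follow the totals throughout. It was 7 in WT/WT replicate 2 (123454878 counts) and 3 in R249C/R249C replicate 3 (91946272 counts). The summed CPM of the 32 ranged from 174 in WT/R249C replicate 2 to 860 in WT/WT replicate 3.

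**Figure D1:**
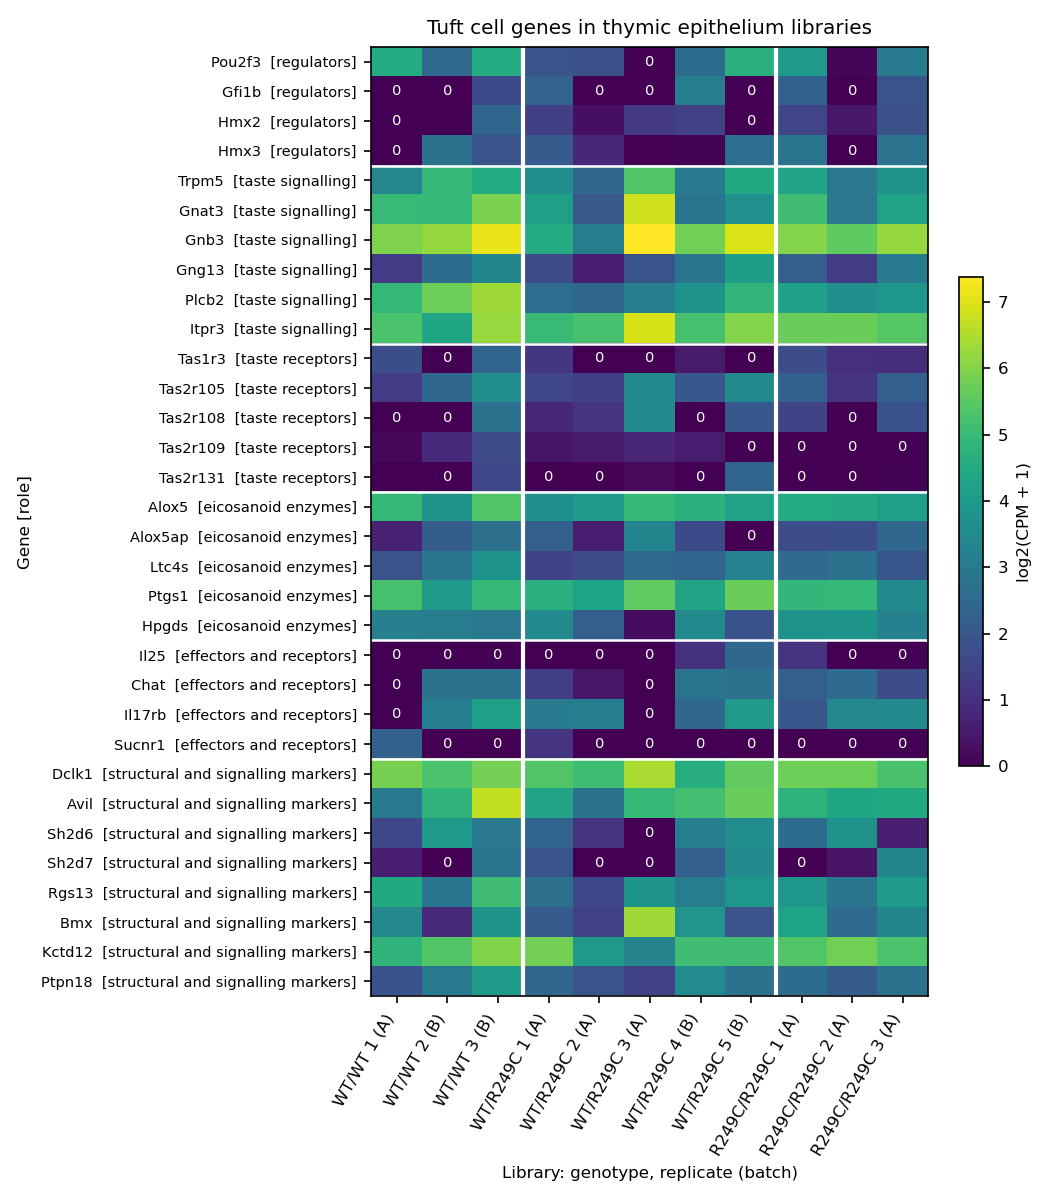
Levels of the 32 tuft cell genes, as log2(CPM + 1) in colour, by gene and role (rows) and library (columns, with genotype, replicate and batch), with a 0 where no count was recorded. WT/R249C replicate 3 has the row maxima of Trpm5, Gnat3, Gnb3 and Itpr3 but not of Plcb2 and Gng13 and is at 0 for 9 genes, and WT/WT replicate 3 has 12 of the 32 row maxima.

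As a summary of level, the mean of log2(CPM + 1) over the 32 was 2.95 ± 0.70 in WT/WT (SD, n = 3). It was 2.57 ± 0.52 in WT/R249C (n = 5), while R249C/R249C averaged 2.75 ± 0.32 (n = 3). The WT/WT libraries stood at 2.43, 2.67 and 3.75 for replicates 1 to 3. The WT/R249C libraries stood at 2.56, 1.76, 2.62, 2.74 and 3.18 for replicates 1 to 5, and the R249C/R249C libraries at 3.00, 2.38 and 2.85. The ranges of the 3 genotypes overlapped, and no 2 means were as far apart as the WT/WT libraries' own SD. By batch, WT/R249C averaged 2.31 in batch A and 2.96 in batch B, and WT/WT 2.43 and 3.21. The difference between WT/R249C and WT/WT was -0.38 with all libraries, -0.12 within batch A, -0.25 within batch B and 0.02 without WT/WT replicate 3. That between R249C/R249C and WT/WT was -0.21 with all libraries, 0.32 within batch A, where WT/WT is 1 library, and 0.19 without WT/WT replicate 3.

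Across the whole table, edgeR's quasi-likelihood test with batch in the model called 0 of 26980 genes (0%) for either mutant genotype against WT/WT at an adjusted p under 0.05, so no tuft cell gene was called. 31 of the 32 were tested, since Sucnr1 did not pass the filter on low counts. At an unadjusted p under 0.05, 3.48% of all genes passed for WT/R249C against WT/WT and 1 tuft cell gene did, Plcb2. For R249C/R249C against WT/WT 3.21% passed, and 2 tuft cell genes did, Tas2r109 and Il25. When the 3 R249C/R249C libraries were set against the 3 WT/R249C libraries of the same batch A, 0 of 23695 genes (0%) were called and 1.08% passed unadjusted, and 2 of the 29 tuft cell genes tested did, Plcb2 and Tas2r109, the latter having passed the filter through 1 group alone. Limma voom called 0 genes in each comparison. DESeq2 called 1.02% of genes for WT/R249C against WT/WT, Plcb2 among them as the only tuft cell gene. It called 1.51% for R249C/R249C against WT/WT and 0.139% for R249C/R249C against WT/R249C, with 0 tuft cell genes in both. The median log2 fold change of the tuft cell genes was -0.14 for WT/R249C against WT/WT, with 15 positive and 16 negative, and 0.14 for R249C/R249C against WT/WT, with 16 positive and 15 negative. The medians over all genes were 0.02 and -0.02. Neither sign was stable: the first median was 0.43 without the contested libraries and positive under 8 of 24 alternatives, and the second was -0.30 with no batch term and negative under 6 of 23. These 2 comparisons share the WT/WT libraries. For R249C/R249C against WT/R249C in batch A, 19 of the 29 tested were positive and 10 negative. Their median was 0.61, against 0.01 over all genes. It was positive under all 13 alternatives, from 0.14 without WT/R249C replicate 2 to 0.81. With 3 libraries per group and genes that vary together, this is a description.

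**Figure D2:**
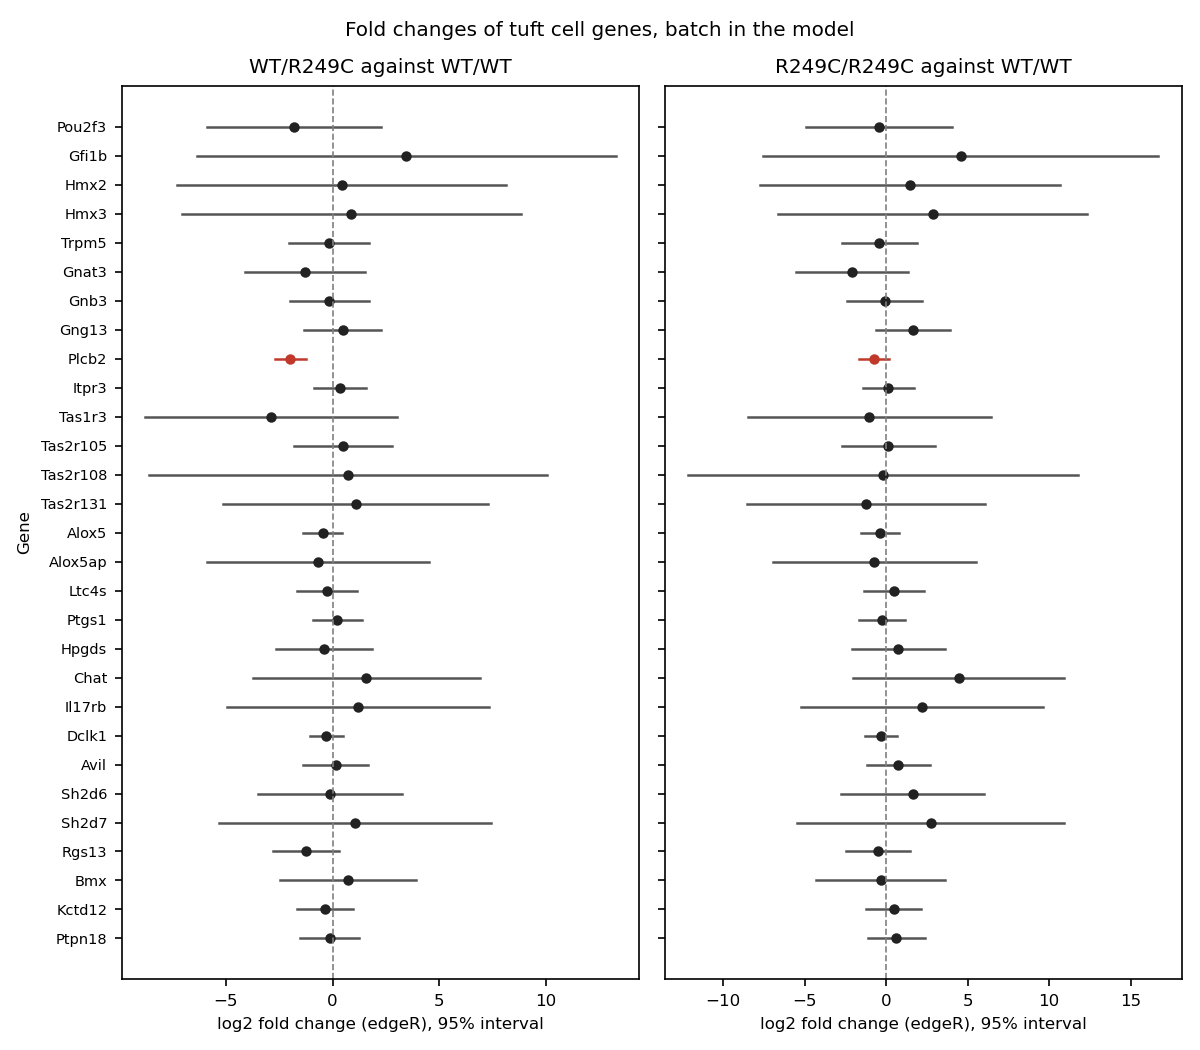
Log2 fold change with its 95% interval from edgeR (horizontal axis) for the tuft cell genes (rows) that were tested and above 0 in at least 1 library of every genotype, for WT/R249C (left) and R249C/R249C (right) against WT/WT, with batch in the model. Plcb2 (red) is the only gene drawn on the left whose interval, -2.72 to -1.24, does not reach 0.

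Plcb2, the phospholipase of the taste cascade, was the tuft cell gene that most clearly separated WT/WT from the libraries with the variant. On average, it was not lower in R249C/R249C than in WT/R249C. It stood at 29.2, 53.1 and 79.7 CPM in WT/WT replicates 1 to 3. In WT/R249C replicates 1 to 5 it stood at 5.27, 4.61, 7.84, 12.6 and 28.1 CPM, and in R249C/R249C replicates 1 to 3 at 17.5, 11.8 and 13.6 CPM. All 8 libraries with the variant lay below all 3 WT/WT libraries, although WT/R249C replicate 5 and WT/WT replicate 1 were separated by little. Separation from WT/WT within each batch follows from this and adds no further support, and batch A holds 1 WT/WT library. Over all genes tested, 0.704% had all 8 libraries with the variant below all 3 WT/WT libraries, and Plcb2 was the only tuft cell gene among them.

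The group means of Plcb2 were 54.0 ± 25.3 CPM in WT/WT (SD, n = 3), 11.7 ± 9.69 CPM for WT/R249C (n = 5) and 14.3 ± 2.91 CPM for R249C/R249C (n = 3). The edgeR log2 fold change was -1.98 (SE 0.33, 95% interval -2.72 to -1.24) for WT/R249C against WT/WT, with an unadjusted p of 0.000185 and an adjusted p of 1. DESeq2 gave -1.99 with an adjusted p of 5.75e-05. The fold change was -2.36 within batch A and -1.67 within batch B. Without the contested libraries it was also -2.36, all mutant libraries then being in batch A beside WT/WT replicate 1, and it was -2.66 with them counted as R249C/R249C. For R249C/R249C against WT/WT it was -0.74 (95% interval -1.67 to 0.19, an unadjusted edgeR p of 0.104). That value was -1.85 with no batch term and -1.40 with the contested libraries counted as R249C/R249C. It shrank to -0.28 without WT/WT replicate 1, the WT/WT library of batch A. Within batch A, R249C/R249C lay above WT/R249C without overlap, with a log2 fold change of 1.34 (95% interval 0.19 to 2.49, an unadjusted edgeR p of 0.0292). All 3 R249C/R249C libraries lay above all 3 WT/R249C libraries in 3.45% of all genes tested, and 2 tuft cell genes, Plcb2 and Chat, were among them. All 3 lay below in 5.41% of genes, and Tas2r109 was the tuft cell gene among them.

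**Figure D3:**
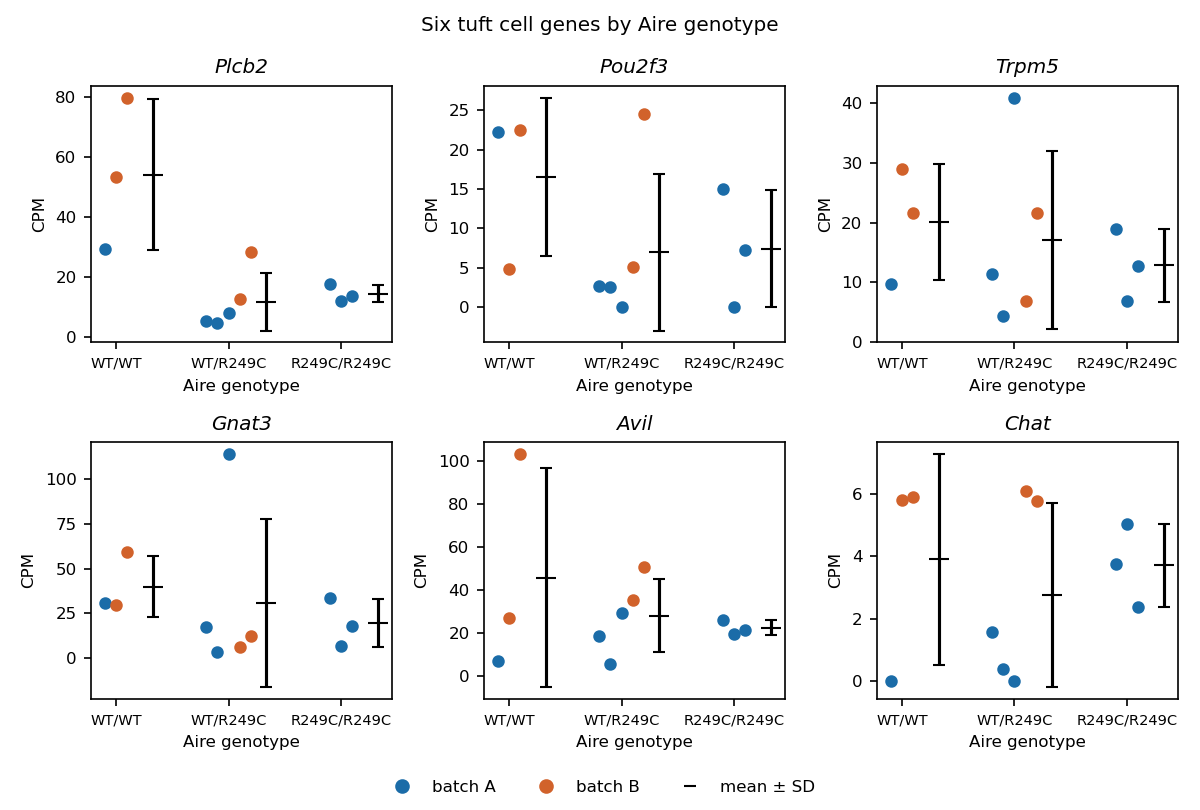
CPM of Plcb2, Pou2f3, Trpm5, Gnat3, Avil and Chat (vertical axes) by Aire genotype (horizontal axes), 1 point per library coloured by batch, with the mean ± SD of each genotype. In the Plcb2 panel all 8 libraries with R249C lie below the 3 WT/WT libraries, while in the other panels the genotypes overlap.

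Leukocytes, mast cells, platelets or endothelium also express Alox5, Alox5ap, Ltc4s, Ptgs1, Hpgds, Gfi1b, Bmx, Itpr3, Il17rb, Kctd12 and Ptpn18, so these are not particular to tuft cells. Plcb2 is also made by leukocytes, and markers of other cells followed it to different degrees. The summed CPM of 13 B cell and plasma cell markers was 2340, 1454 and 3085 in WT/WT replicates 1 to 3 and between 129 and 574 in the 8 libraries with the variant. Most of this sum was Igkc and Jchain, the kappa light chain and the joining chain of antibodies. Cd79a, a B cell receptor subunit, was at 6.98 to 10.1 CPM in WT/WT and at 0 to 4.99 CPM in the other libraries. Within the 8 libraries with the variant, the highest Plcb2 level (28.1 CPM) came with a B cell and plasma cell sum of 138, the third lowest of the 8. The 13 thymocyte markers also had a higher sum in WT/WT, 229 ± 37.7 CPM (SD, n = 3) against 148 ± 53.4 for WT/R249C (n = 5) and 150 ± 36.4 for R249C/R249C (n = 3). Of the 12 tested, 10 and 11 had negative log2 fold changes, with unadjusted edgeR p-values under 0.05 for Cd3g (-1.85 and -1.82) and Lck (-0.69 and -0.86) in both comparisons and adjusted values that called none. The collagen genes Col1a2 (-1.88) and Col3a1 (-1.60) of fibroblasts had unadjusted edgeR p-values of 0.018 and 0.0292 for WT/R249C against WT/WT. Of the 8 endothelial and fibroblast markers, 5 were negative and 3 positive in that comparison. For R249C/R249C against WT/WT 2 were negative and 6 positive, and 0 had an unadjusted p under 0.05 (Col1a2 -0.74, Col3a1 -0.55). The 12 thymic epithelial markers all had positive values in both comparisons, with medians of 0.38 and 0.58. The 15 myeloid and dendritic markers summed to 82.8 to 427 CPM, with 11 of the 14 tested positive in both. Over the 11 libraries, the Pearson r of log2(summed CPM + 1) with Plcb2 was 0.730 for B cell and plasma cell markers. For the other 31 tuft cell genes it was 0.537. It was 0.520 for endothelial and fibroblast, 0.470 for myeloid and dendritic and 0.369 for platelet and erythroid markers. For thymocyte, mast cell and basophil, and thymic epithelial markers it was 0.248, 0.217 and -0.266. The part of these cells in the Plcb2 difference was not tested. The non-member genes whose log2(CPM + 1) was nearest to that of Plcb2 over the 11 libraries were the antibody gene Ighg2b (Pearson r = 0.879) and Lrmp (r = 0.877), the latter a tuft cell gene also present in lymphocytes. Trh, the antibody gene Ighv10-1, Flicr, Cyld, Slamf7, Mkln1, Ppp1r11 and Bag1 followed, at r from 0.869 to 0.826. None of the other members, which were ranked as well at a mean CPM of at least 1, came before these. The correlations are descriptions over libraries of 3 genotypes and 2 batches.

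**Figure D4:**
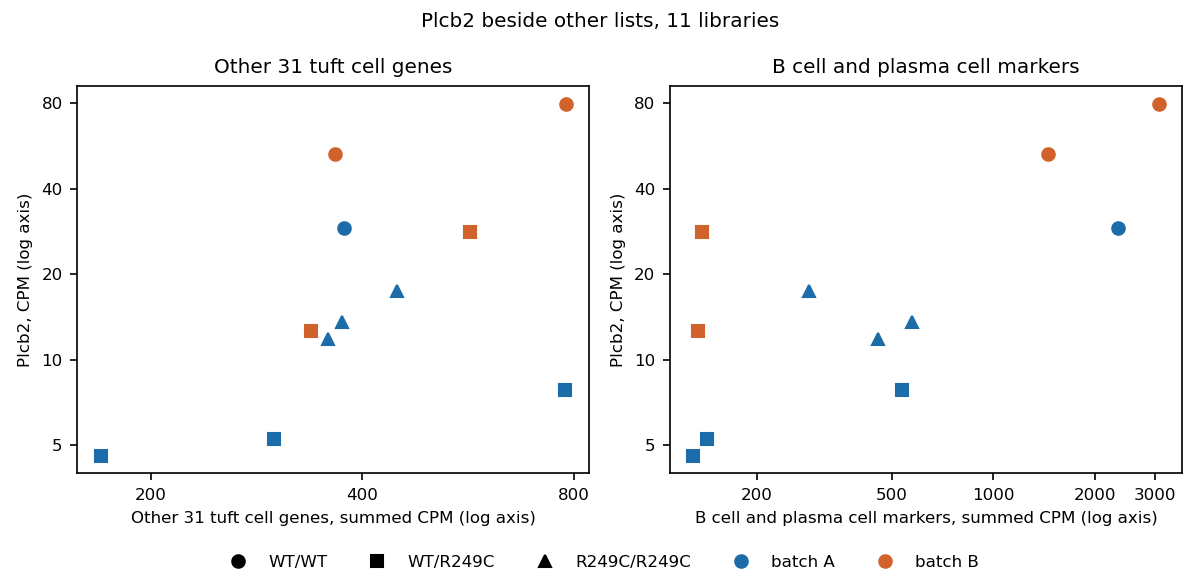
Plcb2 in CPM (vertical, log axis) in each of the 11 libraries against the summed CPM of the other 31 tuft cell genes (left, log axis) and of 13 B cell and plasma cell markers (right, log axis), with genotype as the symbol and batch as the colour. WT/R249C replicate 3 combined 776 CPM of the other tuft cell genes with 7.84 CPM of Plcb2, and the WT/WT libraries lay highest on both axes of the right panel.

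None of the other members of the taste cascade had all libraries with the variant below all WT/WT libraries, as Plcb2 had. Gnat3, the gustducin alpha subunit, was at 30.6, 29.6 and 59.5 CPM in WT/WT, at 17.4, 3.22, 114, 6.25 and 12.3 CPM in WT/R249C and at 33.6, 6.59 and 18 CPM in R249C/R249C. Trpm5 was at 9.72, 29.0 and 21.6 CPM in WT/WT, at 11.4, 4.40, 40.9, 6.96 and 21.6 CPM in WT/R249C and at 18.9, 6.83 and 12.8 CPM in R249C/R249C. Both were highest in WT/R249C replicate 3 and lowest in WT/R249C replicate 2, so the genotypes overlapped. Their log2 fold changes for WT/R249C against WT/WT were -1.28 (95% interval -4.08 to 1.52) for Gnat3 and -0.17 (-2.03 to 1.69) for Trpm5. The Gnat3 interval includes the Plcb2 value of -1.98. For Gnat3, limma voom gave -2.31 (unadjusted p = 0.0168, adjusted p = 0.826) and DESeq2 -1.26 (unadjusted p = 0.187). For R249C/R249C against WT/WT the edgeR values were -2.07 (unadjusted p = 0.206) for Gnat3 and -0.41 (unadjusted p = 0.699) for Trpm5, beside -0.74 for Plcb2.

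Gnb3, the gustducin beta subunit, ranged from 7.53 to 166 CPM and Itpr3 from 19.1 to 121 CPM, with both maxima in WT/R249C replicate 3. In that library Plcb2 was at 7.84 CPM, below every WT/WT library. The log2 fold change for WT/R249C against WT/WT was -0.15 (-1.98 to 1.69) for Gnb3 and 0.36 (-0.87 to 1.59) for Itpr3. Gng13, the gamma subunit, ranged from 0.464 to 16.4 CPM. Its exons overlap those of Chtf18 on the opposite strand over 51.6% of their bases, and the strand setting of the counting is not given, so reads of the 2 genes may be mixed. Opposite-strand genes cover at least 5% of the exon bases of 6 tuft cell genes in all, the others being Alox5ap, Ltc4s, Sh2d7, Kctd12 and Ptpn18.

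Pou2f3, the regulator on which tuft cells depend, was at 22.2, 4.88 and 22.5 CPM in WT/WT. In WT/R249C it was at 2.74, 2.57, 0, 5.10 and 24.5 CPM, and in R249C/R249C at 15.0, 0.0677 and 7.23 CPM. The genotypes overlapped, and the log2 fold changes against WT/WT were -1.79 (95% interval -5.86 to 2.28) for WT/R249C and -0.43 (-4.92 to 4.05) for R249C/R249C. WT/R249C replicate 3 had no Pou2f3 count, which allows up to 0.0495 CPM at a floor of 3 counts, while its Gnat3 and Trpm5 were the highest of all. The other regulators, Gfi1b, Hmx2 and Hmx3, had means of 1.87, 1.28 and 2.75 CPM over the libraries and were at 0 in 6, 2 and 2 of them.

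The bitter receptors were low and patchy. Tas2r105 was the one present in all 11 libraries, at 1.42, 4.50 and 11.5 CPM in WT/WT, at 1.98, 1.58, 10.3, 3.01 and 10.6 CPM in WT/R249C and at 3.85, 1.18 and 3.72 CPM in R249C/R249C. Tas2r108 was at 0, 0 and 5.76 CPM in WT/WT, at 0.802, 1.21, 10.3, 0 and 3.07 CPM in WT/R249C and at 1.84, 0 and 2.65 CPM in R249C/R249C. Neither separated the genotypes. Tas2r131 exceeded 1 CPM in WT/WT replicate 3 (1.96 CPM) and WT/R249C replicate 5 (4.25 CPM) only, was between 0 and 0.132 CPM in the other libraries and at 0 in 6 of them.

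Tas2r109 was at 0.123, 0.891 and 2.21 CPM in WT/WT and at 0.345, 0.456, 0.743, 0.518 and 0 CPM in WT/R249C, and had no count in the 3 R249C/R249C libraries. A floor of 3 counts over that group (0.00975 CPM) covers counting error alone and not the spread between libraries. Against it, R249C/R249C was at least 110.3-fold lower than the WT/WT mean. For the WT/R249C mean of batch A the bound was 52.8-fold. Without WT/WT replicate 3 the first bound was 52.0-fold. The WT/WT library of batch A, the batch of all R249C/R249C libraries, was at 0.123 CPM, so the bound against it alone is smaller. With the contested libraries counted as R249C/R249C that group was no longer at 0, since WT/R249C replicate 4 held 67 counts, and the fitted log2 fold change against WT/WT was -4.24. WT/R249C replicate 5 was at 0 as well, and WT/WT replicate 1 held 13 counts. The unadjusted edgeR p was 0.0173 for R249C/R249C against WT/WT, and the gene was not called after adjustment. In the batch A comparison it passed the filter on low counts only through WT/R249C, the group where it had counts, so its difference there is a description. All 3 R249C/R249C libraries lay below all WT/WT libraries in 4.68% of genes tested, and Tas2r109 and Plcb2 were the 2 tuft cell genes among them. In 5.99% of its 50-base stretches Tas2r109 is identical to Tas2r117 or to pseudogenes of the family. Tas1r3, the shared subunit of sweet and umami receptors, ranged from 0 to 4.17 CPM and was at 0 in 4 libraries. Of 33 other taste receptor genes, 15 were tested, with 5 positive and 10 negative log2 fold changes for WT/R249C against WT/WT and 7 and 8 for R249C/R249C, and 0 passed an unadjusted p under 0.05 in either.

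The 5 eicosanoid enzymes summed to 40.4 CPM in the lowest library and 95.1 CPM in the highest. Alox5, which starts leukotriene synthesis, ranged from 12.1 to 40.9 CPM, and Ptgs1, a cyclooxygenase, from 10.5 to 52.2 CPM. Ltc4s, which makes leukotriene C4, ranged from 1.80 to 12.5 CPM. Alox5ap, the partner protein of Alox5, reached 9.08 CPM and was at 0 in WT/R249C replicate 5. Gene models on the opposite strand overlap 26.4% of the exon bases of Ltc4s and 13.3% of those of Alox5ap. For WT/R249C against WT/WT the log2 fold changes were -0.46 (95% interval -1.38 to 0.46) for Alox5, 0.23 (-0.93 to 1.40) for Ptgs1 and -0.26 (-1.68 to 1.16) for Ltc4s. Hpgds, the prostaglandin D synthase, was at 6.71 to 8.26 CPM in WT/WT, at 0.182 to 10.5 CPM in WT/R249C and at 8.52 to 13.2 CPM in R249C/R249C. Hpgds was the one tuft cell gene with all R249C/R249C libraries above all WT/WT libraries, which 3.42% of genes tested were, and its log2 fold change was 0.75 (95% interval -2.10 to 3.60). Every WT/R249C library lay above every WT/WT library in 1.1% of genes and below in 1.83%, and among the tuft cell genes 0 and 1 (Plcb2) did. Of 22 other eicosanoid genes, 21 were tested, with 14 positive log2 fold changes for WT/R249C against WT/WT, 17 for R249C/R249C and 0 past an unadjusted p under 0.05 in either.

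Il25, the cytokine by which tuft cells call in type 2 immunity, had counts in 3 libraries only, WT/R249C replicates 4 and 5 (1.10 and 4.51 CPM) and R249C/R249C replicate 1 (1.22 CPM). The 3 WT/WT libraries were at 0, as were the other 5. Its unadjusted edgeR p of 0.0227 for R249C/R249C against WT/WT rests on 1 library of 3. Chat, which makes acetylcholine, was at 0, 5.78 and 5.90 CPM in WT/WT, at 1.59, 0.388, 0, 6.09 and 5.76 CPM in WT/R249C and at 3.75, 5.03 and 2.36 CPM in R249C/R249C. Chat was the tuft cell gene with all batch B libraries above all batch A libraries, which 0.297% of genes tested were. Il17rb, the receptor subunit for Il25, reached 17.4 CPM and was at 0 in WT/WT replicate 1 and WT/R249C replicate 3. Sucnr1, the succinate receptor, had counts in WT/WT replicate 1 (3.86 CPM) and WT/R249C replicate 1 (1.18 CPM) only.

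Among the structural and signalling markers, Dclk1, a kinase widely used to mark tuft cells, was at 56.9, 37.9 and 56.2 CPM in WT/WT, at 40.2, 32.9, 85.7, 23.2 and 47.9 CPM in WT/R249C and at 53.2, 52.9 and 37.6 CPM in R249C/R249C. Its log2 fold changes against WT/WT had the narrowest intervals of the list beside Plcb2, -0.29 (-1.07 to 0.50) for WT/R249C and -0.33 (-1.32 to 0.67) for R249C/R249C. Avil, the actin-binding protein advillin of the tuft, was at 7.16, 27.0 and 103 CPM in WT/WT. In WT/R249C it was at 18.9, 5.90, 29.4, 35.2 and 50.8 CPM and in R249C/R249C at 26.3, 19.6 and 21.5 CPM, all 3 of the latter within the WT/WT range. Bmx, a Tec family kinase, was at 78.8 CPM in WT/R249C replicate 3 and at 0.851 to 18.6 CPM elsewhere. Rgs13, a regulator of G protein signalling, ranged from 1.97 to 33.8 CPM. Kctd12, a potassium channel tetramerisation domain protein, ranged from 8.95 to 62.7 CPM, and 62.8% of its exon bases overlap a gene model on the opposite strand. Sh2d6 and Sh2d7, SH2 domain proteins, were at 0 in 1 and 4 libraries and reached 14.9 and 10.3 CPM.

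Most tuft cell genes had higher fitted levels in batch B than in batch A. With genotype in the model, 24 of the 31 tested had a positive log2 fold change for batch B against batch A and 7 a negative one, with a median of 1.15 against -0.01 over all genes. EdgeR called 0 genes (0%), and 3.58% passed an unadjusted p under 0.05, 5 tuft cell genes among them. They were Plcb2 with a log2 fold change of 1.56 and an unadjusted edgeR p of 0.00106, Gng13 with 2.49 and a p of 0.0123, Avil with 1.89 and a p of 0.0174, and Ptpn18, a tyrosine phosphatase, with 1.66 and a p of 0.0219. The fifth was Il25 with a p of 0.0479, and it is at 0 in all batch A libraries but R249C/R249C replicate 1. DESeq2 called 0.738% of genes, among them 1 tuft cell gene, Plcb2 (adjusted p = 0.00462). All batch B libraries lay below all batch A libraries in 0.241% of genes, with 0 tuft cell genes. The median was 0.44 without WT/WT replicate 3, the library with the most tuft cell maxima. Some other lists leaned the same way between batches, with positive values for 13 of 14 myeloid and dendritic markers tested (median 1.26), 11 of 12 thymic epithelial markers (0.66), 9 of 10 microfold markers (0.47) and 8 of 10 neuroendocrine markers (0.61). Thymocyte markers leaned the other way, with 10 of 12 negative. Nearer to an even split were ciliated cell markers (5 of 10 positive), mast cell and basophil markers (5 of 10) and B cell and plasma cell markers (6 of 13). The same held for other taste receptors (8 of 15), platelet and erythroid markers (5 of 8) and endothelial and fibroblast markers (5 of 8). Among 28 further tuft cell genes 25 were tested, with 21 positive and 4 negative log2 fold changes between batches, and the 4 that passed an unadjusted p under 0.05 were Lrmp (1.09), Espn (0.84), Matk (1.62) and Sox9 (-0.45). The same list had 13 positive and 12 negative values for WT/R249C against WT/WT, where Lrmp passed with -0.79 and an unadjusted edgeR p of 0.0371, and 11 and 14 for R249C/R249C, where 0 did.

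The genes varied together to different degrees. Over the 11 libraries, the Pearson r of each gene's log2(CPM + 1) with the mean of the other 31 was highest for Avil (0.894), Gng13 (0.831) and Rgs13 (0.772), and lowest for Sucnr1 (-0.275) and Hpgds (-0.014). Plcb2 stood at 0.668, Pou2f3 at 0.495 and Dclk1 at 0.205. Among 28 members and 378 pairs the median r was 0.287, and the closest pair was Gnat3 and Trpm5 (0.856). Espn, an actin-bundling protein found in tuft and hair cells, was the non-member nearest to the 32-gene mean of the 15111 genes ranked (r = 0.964, 15.9 to 59.5 CPM). Dmpk, Foxp4, Clca3a2, Nrep, Gbp4, Ccl19, Ccl19-ps3, Lrmp and Rogdi followed, at r from 0.903 to 0.862, and all 10 were highest in WT/WT replicate 3. The microfold cell list of 10 markers, another mimetic population, summed to 1093 to 1993 CPM, with the log sum at r = 0.791 to the tuft cell mean. The neuroendocrine list summed to 152 to 386 CPM at r = 0.572, and the ciliated cell list to 44.5 to 81.7 CPM at r = 0.226. These correlations are descriptions over 11 libraries of mixed genotype, batch and depth, and carry no test.

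Octamer sequences, the elements that POU family factors such as Pou2f3 bind, were searched in the RefSeq sequence (GRCm38.p6, not the build of the counts) of 250 bases upstream of each gene start. 28 of the 32 genes had an entry. ATGCAAAT on either strand was found in 5 of their 31 windows (16.1%), against 1.6% of all 32851 windows, in Hpgds, Itpr3, Kctd12, Sucnr1 and Tas2r108. ATGCAAA, which lies within it, was also found in Avil, making 19.4% of the windows against 4.12% overall. Plcb2 and Trpm5 held neither in this window. A match is a description of letters and not of binding. Shown 5′ to 3′ on each gene's strand are Avil, the gene closest to the others, Tas2r108 and Itpr3, which hold the octamer, and Plcb2. Plcb2, not called by edgeR, is the tuft cell gene with all libraries with the variant below all WT/WT libraries. Capitals mark ATGCAAA or its reverse complement TTTGCAT.
Avil (chr10:127000459-127000708, + strand): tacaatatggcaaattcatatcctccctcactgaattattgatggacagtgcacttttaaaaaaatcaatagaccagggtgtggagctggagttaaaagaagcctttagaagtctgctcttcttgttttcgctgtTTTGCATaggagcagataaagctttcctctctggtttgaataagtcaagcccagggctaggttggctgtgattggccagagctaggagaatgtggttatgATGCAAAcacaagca
Tas2r108 (chr6:40493342-40493591, + strand): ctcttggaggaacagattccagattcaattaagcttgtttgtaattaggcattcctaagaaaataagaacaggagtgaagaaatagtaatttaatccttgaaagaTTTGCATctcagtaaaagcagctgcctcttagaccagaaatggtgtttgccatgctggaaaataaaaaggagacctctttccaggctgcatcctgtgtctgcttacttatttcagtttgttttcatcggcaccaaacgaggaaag
Itpr3 (chr17:27057054-27057303, + strand): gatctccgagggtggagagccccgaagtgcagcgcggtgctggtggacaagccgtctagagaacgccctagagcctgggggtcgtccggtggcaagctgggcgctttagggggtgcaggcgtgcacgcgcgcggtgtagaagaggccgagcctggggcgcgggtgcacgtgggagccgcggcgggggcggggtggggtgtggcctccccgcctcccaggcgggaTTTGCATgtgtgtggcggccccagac
Plcb2 (chr2:118728439-118728688, - strand): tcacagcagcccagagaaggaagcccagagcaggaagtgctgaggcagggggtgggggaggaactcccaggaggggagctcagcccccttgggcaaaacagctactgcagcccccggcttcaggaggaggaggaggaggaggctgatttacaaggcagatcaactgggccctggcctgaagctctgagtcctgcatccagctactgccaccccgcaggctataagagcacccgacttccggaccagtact
Avil holds 2 such stretches, 1 on each strand, and the Plcb2 window is without capitals.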

How the data were processed

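Gene counts of 11 libraries were deposited by the authors as whole-number counts that are not normalized. Build mm39 and the tools FastQC, HISAT2 and StringTie are listed per the submitters' processing notes; the counting step, annotation and strand setting are not given in the sources used here. The word trimmed stands in the column names of batch A alone.

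Symbols came from GENCODE names (52073 of 56691 genes). Levels are CPM over column totals, and the summary is the mean of log2(CPM + 1), with a pseudocount of 1. Genes were tested with edgeR 4.0.16 (robust quasi-likelihood, TMM, filterByExpr, two-sided, Benjamini-Hochberg, threshold 0.05) in all 11 libraries with batch as a term, or, for R249C/R249C against WT/R249C, in 6 batch A libraries. DESeq2 1.42.0 and limma 3.58.1 voom were alternatives. The code was checked on simulated counts. Genes given by library were the main markers of each role and those with an unadjusted p under 0.05 in any comparison. The genes and lists were chosen with earlier results of these data known.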

Additional observations from a re-analysis of the deposited data

Results flagged for a closer look

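Within the 5 WT/R249C libraries, 6 of 34 levels checked had 1 library far from the other 4 by Dixon's ratio. Chance flags about 1 in 20 groups of normally distributed values, a rate that does not carry over to CPM values with many zeros. WT/R249C replicate 3 stood high for Gnat3 (114.2 CPM) and Bmx (78.8 CPM). WT/R249C replicate 5, whose labels disagree, stood high for Pou2f3 (24.54 CPM), Tas2r131 (4.247 CPM) and Il25 (4.512 CPM). WT/R249C replicate 1 held the only Sucnr1 counts of the group (1.182 CPM); with the other 4 at 0, any value there would be flagged. Tas2r131 was at 0 in 3 of the 5.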

How the results depend on the processing

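DESeq2 called 274 genes for WT/R249C against WT/WT, 408 for R249C/R249C against WT/WT, 33 for R249C/R249C against WT/R249C and 199 for batch, where edgeR called 0 under every setting tried; it called 1 tuft cell gene in the first and 1 in the last, Plcb2 in both. With the replicate block, by the number in the titles, edgeR called 0 genes in each comparison. Deviations from the group means had r from -0.15 to 0.20 between same-numbered libraries and from -0.162 to 0.155 between differently numbered ones. With so few libraries per group, and batch not removed, these values cannot decide whether the numbers pair samples. Under the block the Plcb2 log2 fold change for WT/R249C against WT/WT was -2.21. Plcb2 kept its direction under all 24 alternatives for WT/R249C against WT/WT (-2.66 to -1.66) and all 23 for R249C/R249C (-1.85 to -0.28). The difference in the summary level moved between -0.64 and 0.02 for WT/R249C and between -0.47 and 0.32 for R249C/R249C, in each case a shift below the WT/WT libraries' SD. The median of the tuft cell genes for R249C/R249C against WT/WT was 1.29 under the replicate block, and that for batch 2.41. The smallest library, WT/R249C replicate 3, allows up to 0.0495 CPM where a gene is at 0.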
